A study of Mus musculus with 5 samples.

Results

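Sub-cluster 7 of the bone marrow (BM) group 2 innate lymphoid cells (ILC2s) was set apart by genes of major histocompatibility complex (MHC) class II antigen presentation. Its members were read from the deposited table of BM sub-cluster genes. Genes in the lists of sub-cluster 7 against each other BM sub-cluster (1 versus 1) and against all others together were taken as higher in it, and genes in the lists of the other sub-clusters against 7 as lower. The list against all others held 5 genes, the 1 versus 1 lists of sub-cluster 7 held 30, and the lists against sub-cluster 7 held 35, of 146 genes in any BM list and 688 in any list of the series. The 5 genes were Cd74, H2-Ab1, H2-Aa, H2-Eb1 and H2-DMa.

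The cells came from male C57BL/6 mice aged 6 weeks, wild-type according to the methods, with no treatment named, and with 10 mice pooled per library batch. BM ILC2s were sorted as cells without lineage markers (CD3, B220, CD11b, CD11c and FceRI) that carried CD25 and ST2, the IL-33 receptor chain. Those of large intestine (LI), lung and pancreas were sorted in the same way. Small intestine (SI) ILC2s, also without lineage markers, were sorted as cells low in Thy1 that carried CD45 and KLRG1. Droplet single-cell 3′ RNA sequencing gave 1 library per tissue, with BM and pancreas in one batch and lung, LI and SI in the other, and the deposited lists divide the 5 tissues into 36 sub-clusters, 8 of them in BM. The lists hold symbols alone, so expression levels, fold changes, cell numbers and depth are unknown, and with no replicate library no difference between sub-clusters could be tested here. A listing is therefore a description of the authors' comparison, and a gene that is not listed may be expressed equally, weakly or not at all.

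MHC class II molecules are pairs of an alpha and a beta chain that display peptides taken up from outside the cell to CD4 T cells. The invariant chain, the product of Cd74, holds new class II molecules and steers them to the endosome, where H2-DM helps to exchange its last fragment for a peptide. Dendritic cells, B cells and macrophages are best known for this pathway, and mouse ILC2s are known to carry MHC class II on their surface as well.

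The same genes opened every comparison. Cd74, H2-Ab1, H2-Aa and H2-Eb1 took places 1, 2, 3 and 4, in this order, in the list of sub-cluster 7 against all others and in each of its 7 lists against sub-clusters 0 to 6. What the order within a list stands for was not given in the sources used here. Against sub-cluster 2 nothing but the 5 signature genes was listed, and against sub-cluster 6 nothing but the first 4 of them. Since these lists chose the members, their presence is no finding, and the 5 genes listed against all others make up 3.42% of the 146 genes in any BM list.

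The chains can be read by their roles. H2-Aa (mm10 chromosome 17, 34282744 to 34287823, minus strand) and H2-Ab1 (34257689 to 34269419, plus strand) encode the alpha and the beta chain of I-A, the classical class II molecule. H2-Eb1 (34305867 to 34316674, plus strand) encodes the beta chain of I-E. Mice of the C57BL/6 background lack a working gene for the I-E alpha chain and carry no I-E on the surface, so that here H2-Eb1 is a transcript without its usual partner. All 3 were in 7 of 7 lists of sub-cluster 7, and no other BM sub-cluster listed any of them against anything.

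H2-DMa (chromosome 17, 34119541 to 34139101, plus strand) encodes the alpha chain of H2-DM, the peptide exchange factor. It was in 6 of the 7 lists of sub-cluster 7, at the 5th place against sub-clusters 1, 2 and 4, at the 6th against 0 and 3, and at the 14th of 23 against 5. It was missing against sub-cluster 6. H2-DMa was listed in no other sub-cluster of the series. The genes of its beta chain partners, H2-DMb1 and H2-DMb2, were in no list of any tissue. The H2-DMa gene model overlaps Brd2 and 3 smaller annotated genes, and H2-Eb1 overlaps the antisense gene Gm20513, and whether counting used strand was not given in the sources used here.

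Cd74, on chromosome 18, was the one signature gene listed for a further BM sub-cluster. Sub-cluster 7 listed it against all 7 others, and sub-cluster 6, listed it against 0, 2 and 3. The list of sub-cluster 6 against all others did not hold Cd74. That list held 38 of the 146 genes in any BM list (26%) and 19 of the 20 interferon response genes in any BM list (of 29 in all). The lists thus order Cd74 as highest in 7, then 6, then 0, 2 and 3, while 1, 4 and 5 were separated from 7 but not from 6. No replicate error can be put on this order.

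**Figure D1:**
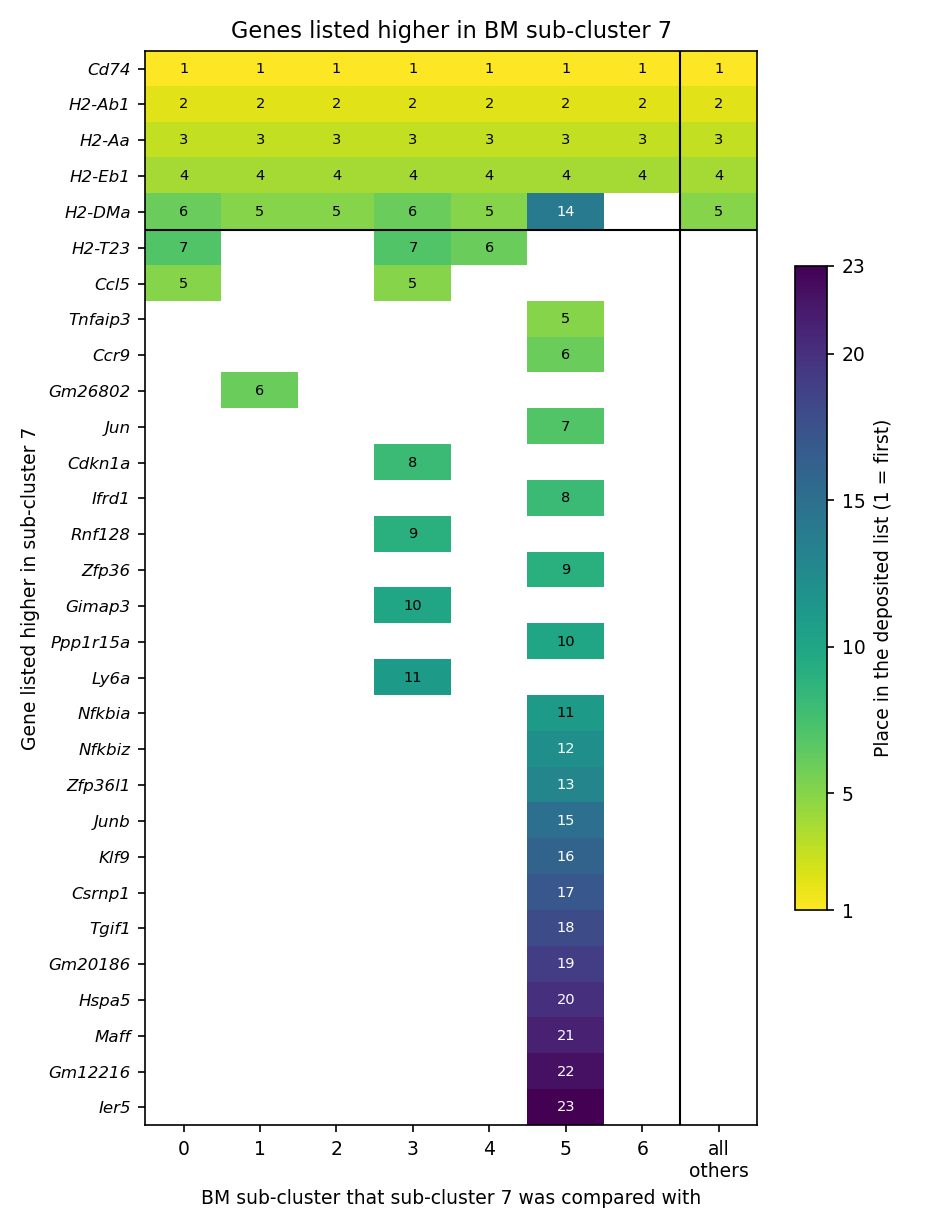
Rows are the 30 genes listed higher in BM sub-cluster 7, columns the sub-cluster it was compared with (0 to 6, then all others), and each filled cell gives the place of the gene in the deposited list. The first 4 rows are filled in every column at places 1 to 4, and 18 genes below the line have their only entry in the column of sub-cluster 5.

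Of a class II pathway list of 23 genes (chains, invariant chain, transcription factors, proteases and costimulatory molecules), 5 were in the list of sub-cluster 7 against all others and none was in a list against it. That list of sub-cluster 7 holds 3.42% of the genes in any BM list. The list of SI sub-cluster 4 against all others also held 5 of the 23, so the count is not particular to BM 7. All 5 signature genes of BM 7 belong to the pathway, and the pathway list was written with them known. The other 18 pathway genes were in no BM list. Among these were Ciita, the master regulator of class II transcription, Rfx5, Rfxap and Rfxank, which encode the RFX complex on class II promoters, the remaining chain genes H2-Eb2, H2-Oa and H2-Ob, the lysosomal enzyme genes Ctss, Ctsl and Ifi30, and Cd80, Cd86 and Cd40, which give costimulatory signals to T cells. Lgmn, an endosomal protease, and Cd83, an activation marker of antigen-presenting cells, were listed in the gut alone.

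Class II genes share promoter elements, an X box bound by RFX and a Y box bound by NF-Y, at a fixed distance from each other. The stretch from 120 to 21 bases before the start site is shown for H2-Aa, H2-Eb1 and H2-DMa. These are the chain genes of the signature with an entry used here in the RefSeq promoter table (GRCm38.p6, the assembly of mm10). The same stretch is shown for H2-T23, a class I gene of the same chromosome that accompanied these genes in 3 lists. Capitals mark the cores searched for, GCAAC of the X box and ATTGG of the Y box, or CCAAT where the Y core lies on the other strand.
H2-Aa: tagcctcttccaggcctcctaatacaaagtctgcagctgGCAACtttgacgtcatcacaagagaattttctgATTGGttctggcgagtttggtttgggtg
H2-Eb1: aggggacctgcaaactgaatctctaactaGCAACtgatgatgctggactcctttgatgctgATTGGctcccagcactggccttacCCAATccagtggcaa
H2-DMa: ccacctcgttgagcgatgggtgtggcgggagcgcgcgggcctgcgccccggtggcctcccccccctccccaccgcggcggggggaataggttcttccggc
H2-T23: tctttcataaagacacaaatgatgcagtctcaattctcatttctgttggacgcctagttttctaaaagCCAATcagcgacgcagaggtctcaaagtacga

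The windows lie at chr17:34287844-34287943 on the minus strand (H2-Aa), chr17:34305747-34305846 on the plus strand (H2-Eb1), chr17:34122712-34122811 on the plus strand (H2-DMa, the first of 2 start sites in the table) and chr17:36032722-36032821 on the minus strand (H2-T23). In H2-Aa the X core runs from -81 to -77 and the Y core from -48 to -44, with 28 bases between them. In H2-Eb1 they run from -91 to -87 and from -59 to -55, with 27 bases between them. H2-Aa also holds TGACGTCA, a cyclic AMP response element, from -74 to -67, beside its X core. The window of H2-T23 holds no X core, and it holds a Y core on the other strand from -52 to -48. The window of H2-DMa, drawn at its first start site only, holds neither core. That of its second start site is not shown, so the sequence above does not tell whether H2-DMa lacks these elements.

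Over the full 300 bases of each promoter (250 before the start site and 50 after), read on both strands, GCAAC was in 35.2% and ATTGG in 37.4% of 32851 mouse promoters, so neither core alone marks a class II gene. Over this length the promoter of H2-T23 held both cores. That of H2-DMa held an X core at its first start site and a Y core at its second. GCAAC followed after 15 to 35 bases by ATTGG was in 1.02% of them. That arrangement was chosen after the H2-Aa and H2-Eb1 sequences had been seen. It was in 5 of 17 promoters of the class II pathway list, those of H2-Aa, H2-Eb1, H2-Eb2, H2-Oa and H2-Ob, of which the last 3 were in no list of the series. Among the other 25 genes listed higher in sub-cluster 7 it was in 1 of 32 promoters, that of Hspa5, and among the genes listed lower in 0 of 26. Such matches describe letters and not binding.

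The signature genes on chromosome 17 are neighbours. H2-DMa, H2-Ab1, H2-Aa and H2-Eb1 lie within 197 kb (34119541 to 34316674), a stretch with 11 protein-coding genes. Of these 11, 4 were in lists of sub-cluster 7, which follows from drawing the stretch to their outer ends. A further 3, Psmb9, Tap1 and Psmb8, were in lists of sub-cluster 6 and not of 7. The 1 versus 1 lists of sub-cluster 6 held 64 of the 146 genes in any BM list. Tap1, which encodes a subunit of the peptide transporter of the class I pathway, was in 6 of 7 lists of sub-cluster 6. Psmb8 and Psmb9, which encode immunoproteasome subunits, were in 1 and 2 of them. The remaining 4 genes of the stretch, H2-DMb1, H2-DMb2, Tap2 and H2-Ob, were in no list of the series. Class II and class I genes of the same stretch were thus listed for different BM sub-clusters, but the direct comparison separated them only in part. H2-Ab1, H2-Aa and H2-Eb1 were listed for 7 against 6, and H2-DMa was not. None of Tap1, Psmb8 and Psmb9 was listed for 6 against 7.

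H2-T23 was in 1 versus 1 lists of both sub-clusters 6 and 7, but in the list against all others of 6 alone. It encodes Qa-1, a class I-like molecule recognised by receptors of NK and T cells, and lies further along chromosome 17 (36029773 to 36032855). Sub-cluster 7 listed it against 0, 3 and 4, and sub-cluster 6 against 0, 1, 2, 3, 4 and 5. Neither listed it against the other, so the lists do not separate 6 and 7 for H2-T23. Of 19 class I pathway genes, 6 were in any BM list. Of these 6, the list of sub-cluster 7 against all others held 0 and that of sub-cluster 6 held 4. The same lists hold 3.42% and 26% of the genes in any BM list. In the 1 versus 1 lists of sub-cluster 7, H2-T23 was the 1 class I pathway gene.

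Ccl5 was the other gene listed more than once outside the signature. It encodes a chemokine of activated T cells and NK cells, and sub-cluster 7 listed it at the 5th place against sub-clusters 0 and 3. No other BM sub-cluster listed Ccl5. In the whole series its one further sub-cluster was pancreas 5, which listed it against all others and against 0, 1, 2 and 4. The remaining 23 genes outside the signature were each in a single list of sub-cluster 7.

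All 30 genes in a 1 versus 1 list of sub-cluster 7 make up 20.5% of the 146 genes in any BM list. The longest of its lists was the one against sub-cluster 5, with 23 genes, of which 18 were outside the signature and in no other list of sub-cluster 7. They included Jun, Junb and Maff, which encode subunits of bZIP transcription factors, Nfkbia, Nfkbiz and Tnfaip3, which restrain or modify NF-kB signalling, Zfp36 and Zfp36l1, which promote mRNA decay, Ppp1r15a and Ier5, which are induced by stress and stimulation, Hspa5, a chaperone of the endoplasmic reticulum, and Ccr9, a chemokine receptor for homing to the gut. Csrnp1, Gm12216, Gm20186, Ifrd1, Klf9 and Tgif1 completed them. Of 26 immediate early genes, 15 were in any BM list and 6 in this list, which holds 15.8% of the genes in any BM list.

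These 18 genes were not particular to sub-cluster 7 in the lists. Each was also listed for at least 1 other BM sub-cluster against 5, and 15 of them for at least 4 of the 6 others. Tnfaip3, Ccr9 and Zfp36 were listed by all 6 others, so that every BM sub-cluster stood above 5 for them. Gm12216, listed by sub-cluster 6 as well, and Tgif1, listed by 0 and 6, had the fewest. None of the 5 signature genes was listed against 5 by any other sub-cluster. The signature was picked as higher in 7 than in all others together, which favours this contrast. Sub-cluster 5 itself listed Mcpt8, Fcer1g and Tyrobp against all others. In BM lists, Mcpt8 was the 1 of 6 basophil and mast cell markers. Fcer1g and Tyrobp were the 2 of 11 monocyte and macrophage markers. These few genes give sub-cluster 5 no cell type here.

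**Figure D2:**
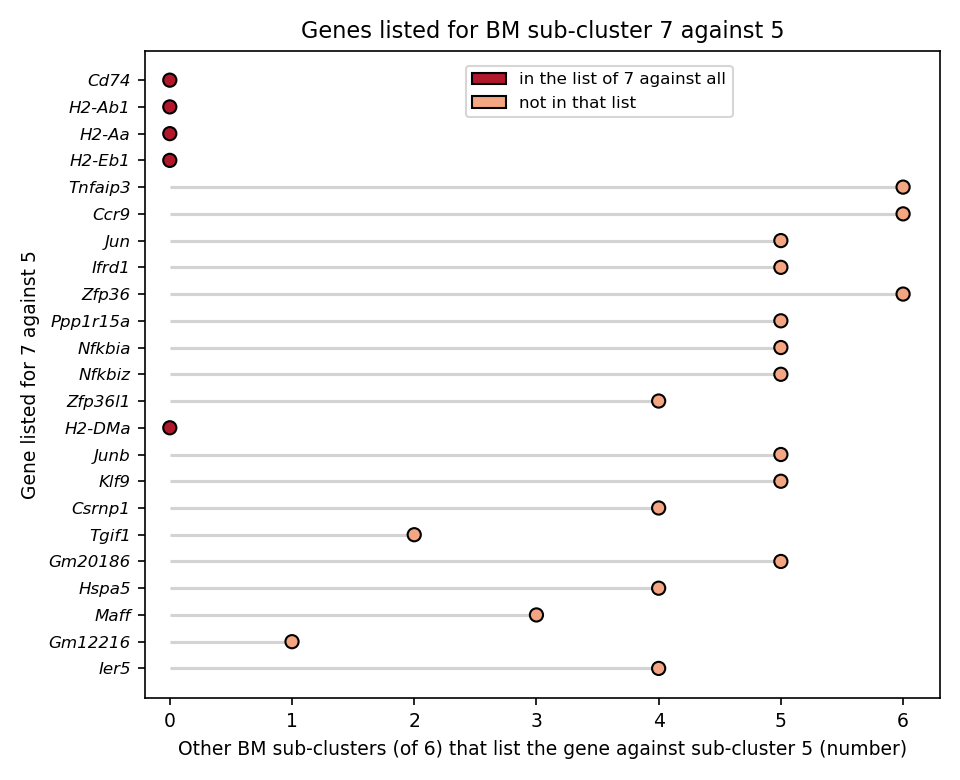
Rows are the 23 genes listed for BM sub-cluster 7 against 5 in deposited order, and the horizontal axis counts how many of the 6 other sub-clusters list the same gene against 5. The 5 signature genes, picked by the list of 7 against all others, sit at 0, and the 18 other genes between 1 and 6.

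Against sub-cluster 3, 6 genes outside the signature were listed, of which 5 were also listed against 3 by another sub-cluster and 2 by at least 4 others. Of the signature, Cd74 was listed against 3 by sub-cluster 6 as well. Cdkn1a, a cell cycle inhibitor, was also listed against 3 by sub-clusters 0, 1, 4 and 6. Rnf128, an E3 ubiquitin ligase of T cell anergy, was listed by 1, 2, 4 and 5, and Gimap3, a GTPase of lymphocyte survival, by 1, 2 and 5. Ly6a, the stem cell antigen Sca-1, was listed by 6, as was H2-T23, and Ccl5 by none. For Ly6a sub-cluster 6 was also listed above 7, which gives the order 6, 7, 3. Gm26802, a long non-coding RNA, was listed against sub-cluster 1 by 7 and also by 2, 3 and 6. Of all 25 genes outside the signature, Ccl5 alone was listed for sub-cluster 7 and for no other sub-cluster against the same one.

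In the other direction, 35 genes were listed higher in another sub-cluster than in 7, which is 24% of the 146 genes in any BM list. Sub-clusters 0, 1 and 2 listed no gene against 7. Sub-cluster 3 listed 5, sub-cluster 4 listed 8, sub-cluster 5 listed 2 and sub-cluster 6 listed 21. S100a4, a calcium-binding protein gene, was the single gene listed by more than 1 of them, namely by 3 and 5. No gene was in all 7 of these lists, and with 3 of them empty none could be.

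Most genes listed above sub-cluster 7 were also in the list of that other sub-cluster against all others. Sub-cluster 7 is itself among those others and the lists come from the same cells. This favours the overlap, which is therefore no finding about 7. All 21 genes of sub-cluster 6 against 7, among them Isg15 and Gbp2, were in the list of sub-cluster 6 against all others. They were 21 of the 146 genes in any BM list. Among them were 13 of the 20 interferon response genes in any BM list (of 29 in all). Sub-cluster 4 listed Actb, Kdm6b, Notch2, Kmt2d, Ncoa3, Sdc4, Alkbh5 and Gnb1, of which 7 were in its own list against all others and Alkbh5, an RNA demethylase, was not. Sub-cluster 3 listed Stab2, a scavenger receptor, S100a4, Icos, Vim and Pxdc1, of which Icos, a costimulatory receptor of T cells and ILC2s, was not in its list against all others. Sub-cluster 5 listed S100a4 and Crip1, both in its own list.

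**Figure D3:**
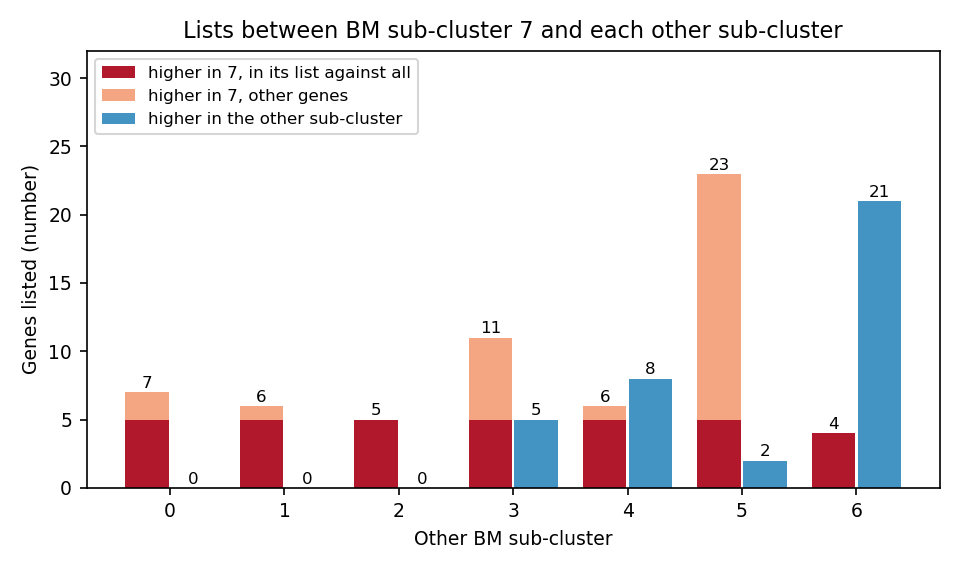
For each other BM sub-cluster, the left bar gives the number of genes listed higher in 7 (dark for the 5 signature genes, light for others) and the right bar the number listed higher in the other. The right bars are at 0 for sub-clusters 0, 1 and 2 and reach 21 for sub-cluster 6.

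The list of sub-cluster 6 against 7 was also its shortest. Against sub-clusters 0 to 5 it listed 37 to 46 genes, against 7 it listed 21, and 17 of the 38 genes it listed against all others were not listed against 7. Of 28 such genes that it listed against every one of 0 to 5, 8 were missing against 7, namely H2-T23, Iigp1, Irf7, Mndal, Psmb10, Rsad2, Tap1 and Ube2l6. None of these but H2-T23 was in a list of sub-cluster 7. Sub-cluster 5 likewise listed 2 genes against 7 and 8 to 23 against the rest, and Tyrobp, which it listed against all 6 others, was missing against 7. Sub-cluster 4 listed 8 genes against 7 and 8 to 38 against the rest. Sub-cluster 3 differed, with 5 genes against 7 and 4 to 14 against the rest, where 2 lists were shorter than the one against 7. The number of cells in each sub-cluster is unknown, and its part in the length of these lists was not tested.

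Counted both ways, 5 to 25 genes separated sub-cluster 7 from another BM sub-cluster, with a median of 14 over its 7 pairs. The 21 pairs without sub-cluster 7 ranged from 3 to 62, with a median of 28. Taken by sub-cluster, the median over 7 pairs was 7 for sub-cluster 0, 8 for 1, 9 for 2, 14 for 4 and 7, 17 for 3, 34 for 5 and 41 for 6, so that sub-cluster 7 lay in the middle. The fewest genes separated 7 from sub-clusters 2 (5 genes), 1 (6) and 0 (7), then from 4 (14) and 3 (16). The most separated it from 5 and 6 (25 each). Sub-clusters 0, 1 and 2 also had the lowest medians, so their low counts are not particular to the pairs with 7. Cell numbers and the threshold behind the lists are unknown, so these counts do not measure likeness. Sub-clusters 0 and 2 were the only pair with fewer genes than 2 and 7. Pairs share sub-clusters and are not independent, so these counts are a description. Of the 5 signature genes, 4 were in every list of sub-cluster 7. Sub-cluster 6 had 20 genes in every one of its lists and sub-cluster 4 had 6, while sub-clusters 0, 1, 2, 3 and 5 had 0.

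**Figure D4:**
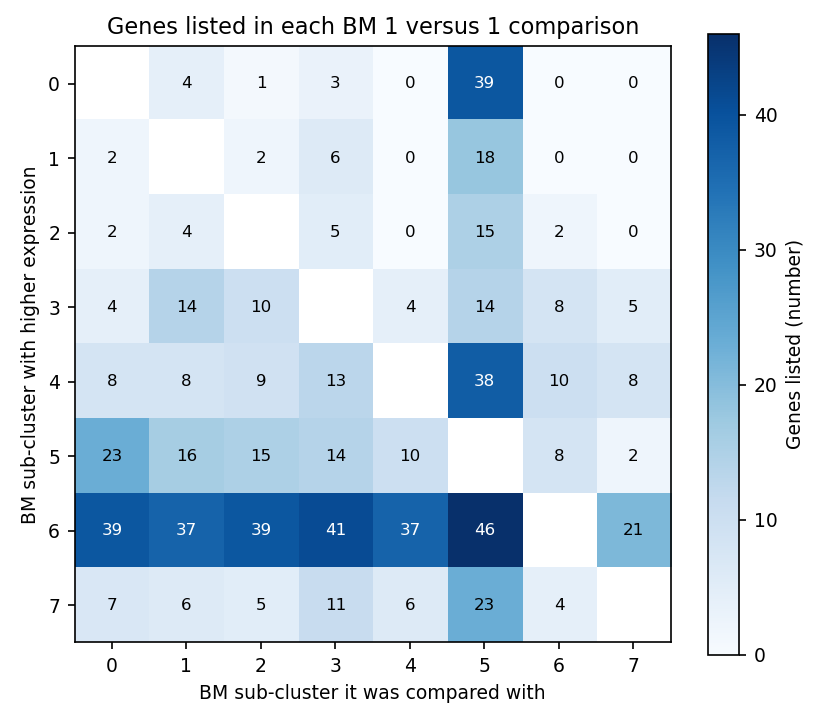
Each cell gives the number of genes listed higher in the sub-cluster of its row than in that of its column. The row of sub-cluster 7 has entries in every column, from 4 to 23, and its column is at 0 for sub-clusters 0, 1 and 2.

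The label of the sub-cluster was set against marker lists. All 4 of its markers (Cd74, H2-Ab1, H2-Aa and H2-Eb1) were in 7 of 7 lists, but these lists chose them, so this is no check of the label. Of 17 ILC2 markers, none was listed in 7 against all others, Ccr9 was listed against 5, and Icos was listed in sub-cluster 3 against 7. The other listed ILC2 markers of BM, Klrg1 and Il6ra, were in no comparison with 7, and 13 of the 17, including Gata3, Rora, Id2 and Il2ra, were in no BM list. By these markers the lists separate sub-cluster 7 from 5 (Ccr9) and from 3 (Icos), and from no other BM sub-cluster.

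Cells known for MHC class II could also pass a sort in small numbers. Of 14 B cell markers, among them Cd79a and Ms4a1, and of 11 dendritic cell markers, among them Flt3, Itgax and Siglech, 0 were in any list of the series. Of 11 monocyte and macrophage markers 0 were in a list of sub-cluster 7, and the 2 in BM lists, Fcer1g and Tyrobp, were in those of sub-cluster 5. T cell, ILC3, basophil, neutrophil, erythroid, progenitor and endothelial markers were likewise absent from the lists of sub-cluster 7, the endothelial marker Stab2 was listed in sub-cluster 3 against it, and of 7 NK cell and ILC1 markers Ccl5 was the one present. Whether lineage-marked cells, or RNA from them, had a part in the signature was not tested, since the lists hold no levels. The methods name no step against doublets (droplets with 2 cells), and without cells none could be called here, so their part in the signature was not tested. According to the methods of the study, clusters with markers of B cells, myeloid cells and other types were removed, and the sort used B220, CD11b and CD11c. The markers named for that removal include Cd79a and Itgax, so the counts of 0 above are no independent check.

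Outside BM, the signature was found again in part. Of the 35 other sub-clusters of the series, 3 listed at least 1 of the 5 genes against all others. SI 4, which opened with the cytokine gene Il17a, listed the I-A chain genes H2-Ab1 and H2-Aa together with H2-Eb1 and Cd74, which is 80% of the list of BM 7 and 16.7% of the 24 genes of SI 4. LI 6 and pancreas 5 listed Cd74 and no class II chain, which is 2% of the 50 genes of LI 6 and 5% of the 20 of pancreas 5. BM and SI were of different library batches, and SI ILC2s were sorted with other markers.

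The class II genes took a different rank in SI 4. There H2-Eb1 was in 5 of 6 lists against single sub-clusters, H2-Aa in 4, H2-Ab1 in 3 and Cd74 in 2, whereas in BM 7 each was in 7 of 7. In the list of SI 4 against all others they stood at places 6, 11, 12 and 5, behind Il17a, Ubald2, Lgals1 and Actn2. None of the 4 was listed by SI 4 against SI 6, and SI 6 itself listed Cd74 against SI 0 and SI 2. H2-DMa was not listed in SI. Lgmn was in 6 of 6 lists of SI 4 and 6 of 7 of LI 6, and in no BM list. The lists of BM 7 and SI 4 therefore shared the classical chains and Cd74. H2-DMa was listed for BM 7 and not SI 4, and Lgmn and Cd83 for SI 4 and not BM 7. Since lists were made within each tissue, this shows no difference in expression between BM 7 and SI 4.

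Cd74 was listed more widely than the chains. In any 1 versus 1 list it was found in 8 of 36 sub-clusters from 4 tissues, BM 6 and 7, LI 5 and 6, pancreas 5, and SI 4, 5 and 6, whereas H2-Aa, H2-Ab1 and H2-Eb1 were found in 2 each. No lung sub-cluster listed any of the 5 genes. LI 6 listed Cd74 against 6 of 7 others, pancreas 5 against 4 of 6, LI 5 and SI 6 against 2, and SI 5 against 1. These lists were made within each tissue, so they do not compare Cd74 between tissues.

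**Figure D5:**
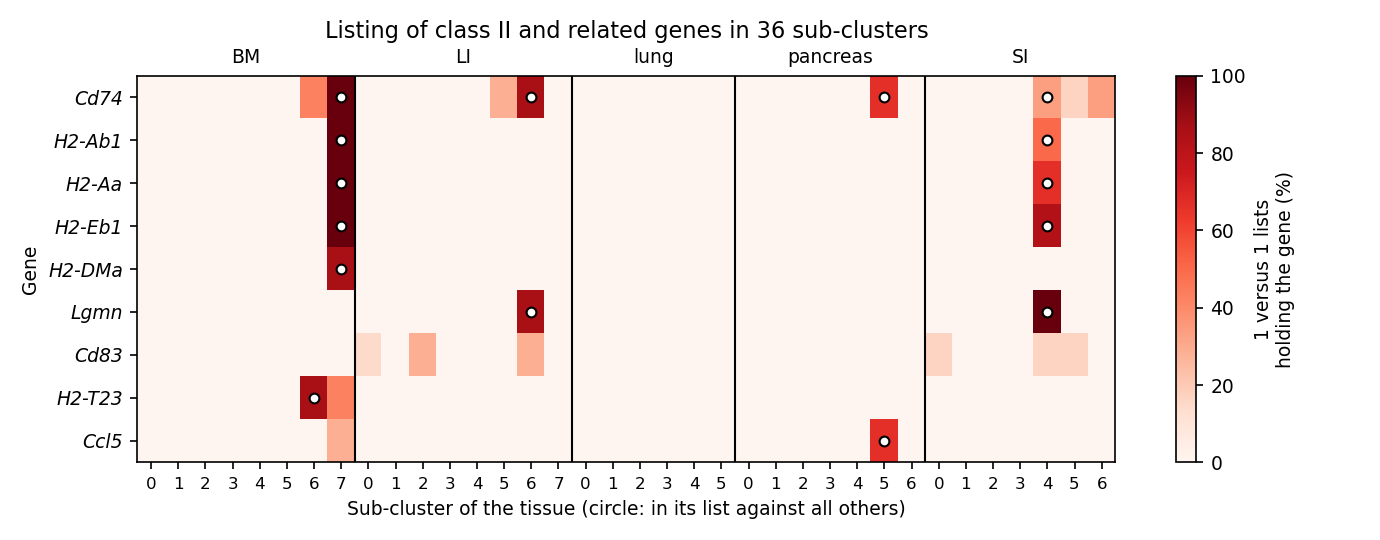
Columns are the 36 sub-clusters by tissue, rows are class II and related genes, the colour gives the percentage of 1 versus 1 lists of the sub-cluster that hold the gene, and a circle marks its list against all others. The 3 chain genes H2-Ab1, H2-Aa and H2-Eb1 are filled for BM 7 and SI 4 alone, H2-DMa for BM 7 alone, and Cd74 for 8 sub-clusters.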

How the data were processed

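Droplet single-cell 3′ libraries of sorted ILC2s from 5 tissues were sequenced, 1 library per tissue. Per the labels, the authors used Cell Ranger, Seurat (version 2) and R (version 3.6.1) with build mm10. The methods add filters on cells and genes with scater, log-normalisation, clustering within a tissue and removal of contaminating clusters. Not given in the sources used here was the threshold behind the lists.

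The deposited tables hold gene symbols alone, with headers on line 4. All 262 columns were read, with NA read as no gene and spaces trimmed. Counts of listed genes were computed in Python 3.11.15 (figures in matplotlib 3.10.9), with a reader tested on simulated tables. No test was run, since a tissue has 1 library and no values, and the genes tested by the authors are unknown; percentages are of genes in any BM list. The alternatives were genes in every, in at least 4 or in any 1 versus 1 list.

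Members and gene lists were chosen with earlier results of these data known. Text names every gene in a list of sub-cluster 7, the first 3 genes of each list against it and any gene in at least 4 of those, and listed class II pathway genes, apart from an item that is not reported here. Further genes lower in 7 and neighbours on chromosome 17 were named after their listing had been seen. All 146 BM symbols matched 1 gene of GENCODE release M21. Promoters are from RefSeq, and 3 of the 5 signature genes had a promoter that was searched.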

Additional observations from a re-analysis of the deposited data

How the results depend on the processing

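The signature held 5 genes against all others, 4 in every 1 versus 1 list and 5 in at least 4 of them, but 30 in any 1 versus 1 list, and 12 in any of these without the list against sub-cluster 5. Genes listed lower in sub-cluster 7 numbered 35 in at least 1 list, 14 without the list of sub-cluster 6, and 0 in at least 4 lists. They numbered 0 in every list too, where 3 of the lists are empty. Leaving out these lists was chosen after seeing the data. Cd74 was listed in 4 sub-clusters against all others and in 8 in any 1 versus 1 list, whereas class II chains were listed in 2 under both. BM 7 and SI 4 shared 4 genes against all others, 7 in any 1 versus 1 list of each (with Ccr9, Nfkbia and Ppp1r15a) and 0 in every list of each. The 1 ILC2 marker lower in 7 (Icos) became 0 in at least 4 lists. Of 15 alternatives, 6 stayed within 1.5 times the main count and 9 moved beyond it. No paired analysis was possible because each tissue has 1 library and the lists hold no values. Depth is unknown, so an absent listing sets no limit on expression.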

Other observations

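Several genes of sub-cluster 7 against 5 were listed widely in the series. Nfkbia was in a list of 23 of 36 sub-clusters, Jun and Ppp1r15a of 22 each and Gm20186 of 24, whereas Klf9 was listed in 6 and Hspa5 in 5, all of them in BM. Ccl5 was listed in 2 sub-clusters, BM 7 and pancreas 5, both from the same library batch, and pancreas 5 also listed Cd74 against all others. H2-T23 was listed in BM 6 and BM 7 alone. No heat shock gene of a list of 12 was in any BM list, although 11 of them were listed in other tissues, and of 13 cell cycle genes 1, Tubb5, was in a BM list and none in a comparison with sub-cluster 7.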
